A study of Sus scrofa with 4 samples.

Results

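The genes described here encode proteins of the elastic fibre and of its microfibril scaffold, measured in dermal fibroblasts grown from healed skin wounds of Duroc pigs. They were chosen by gene symbol from a list of 10 (ELN, FBN1, FBN2, FBLN1, FBLN5, EFEMP1, EFEMP2, MFAP2, MFAP4 and MFAP5). In the platform annotation 5 of the 10 had a probeset that carried their symbol alone, out of 6765 genes named this way. These were FBN1, MFAP2, MFAP5, FBLN1 and EFEMP2, on 8 probesets in all. ELN, FBN2, FBLN5, EFEMP1 and MFAP4 were not analysed here. The elastin core of the fibre is therefore not covered, and the 5 genes belong to the microfibril and the fibulins.

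Shallow and deep wounds were made on the backs of 2 Duroc pigs and biopsied 20 weeks later, in a model of cutaneous fibrosis. RNA came from confluent dermal cone fibroblast cultures kept in serum-containing medium, so the values describe cells in culture and not the scar itself. There were 4 arrays, 1 shallow and 1 deep from each pig. The 2 groups, shallow wound and deep wound, shared breed, time and culture conditions and differed by wound depth alone in the labels, and no culture from unwounded skin was analysed here. The arrays of pig 1 and pig 2 were paired as the sample titles state, taking the samples as numbered in the order listed.

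Elastic fibres give skin its recoil. Fibrillin polymerizes outside the cell into microfibrils, microfibril-associated glycoproteins bind along them, and fibulins bring elastin and lysyl oxidase to this scaffold, where elastin is cross-linked into a continuous core. Skin scars are known for sparse and disordered elastic fibres. Messenger RNA measures neither the secreted protein nor the fibre laid down.

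The signals are MAS5 intensities, and differences are deep minus shallow on the log2 scale. The 10 fibroblast markers that could be measured, of 11 listed, were above the highest absent-transcript control on all 4 arrays. COL3A1 was the dimmest of them, not far above that control, at 26.7 and 19.4 in shallow and 47.7 and 44.4 in deep cultures of pigs 1 and 2. The 7 epithelial markers measured, of 12 listed, were all above it on the shallow array of pig 1, against 2 of them in the shallow culture of pig 2, 3 in the deep culture of pig 1 and 1 in that of pig 2. Their summed signal was 5501 there and 130 to 279 on the others, and CDH1, the adhesion protein of epithelial junctions, was above the absent controls on that array alone. Actin probesets near the 3' end outshone those near the 5' end, which depends on RNA quality and labelling, by 1.96 and 2.41 times in shallow cultures of pigs 1 and 2 and by 3.28 and 6.1 times in deep cultures. The same ratio for GAPDH was 1.53 and 1.67 in shallow and 1.75 and 2.06 in deep cultures. The 28S ribosomal RNA signal was 1351 and 1836 against 3462 and 7621, and the highest absent control 14.8 and 13.6 against 21.8 and 30.9. All 4 measures were thus higher on both deep arrays than on both shallow arrays. Their part in the deep minus shallow differences was not tested.

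FBN1, FBLN1 and EFEMP2 had higher signal on both deep arrays than on both shallow arrays, and MFAP5 had lower signal on both. MFAP2 was higher on the deep array within each pig, with the groups overlapping. The median difference of the 5 genes was 1.24, and it was -0.02 over the 14399 probesets tested. None of the 5 passed an adjusted p of 0.05 in limma with the pig as a block, where 0.34% of all probesets passed, 0.236% higher and 0.104% lower in deep. Without adjustment 4 of the 5 had a p under 0.05, all of them higher in deep, against 6.94% of all probesets higher and 6.92% lower. Groups that did not overlap were found for 4 of the 5 genes, 3 higher and 1 lower in deep. Among all probesets 23.2% had both deep arrays higher than either shallow array, and 25.5% had both lower. The signal was higher in deep in both pigs for 4 of the 5 genes and for 29.8% of probesets, and lower in both pigs for 1 gene and for 31.6% of probesets. The genes were chosen with earlier results of these data known. The 4 that were higher in deep were all lowest on the shallow array of pig 1. These counts therefore describe the genes and do not test them as a set.

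**Figure D1:**
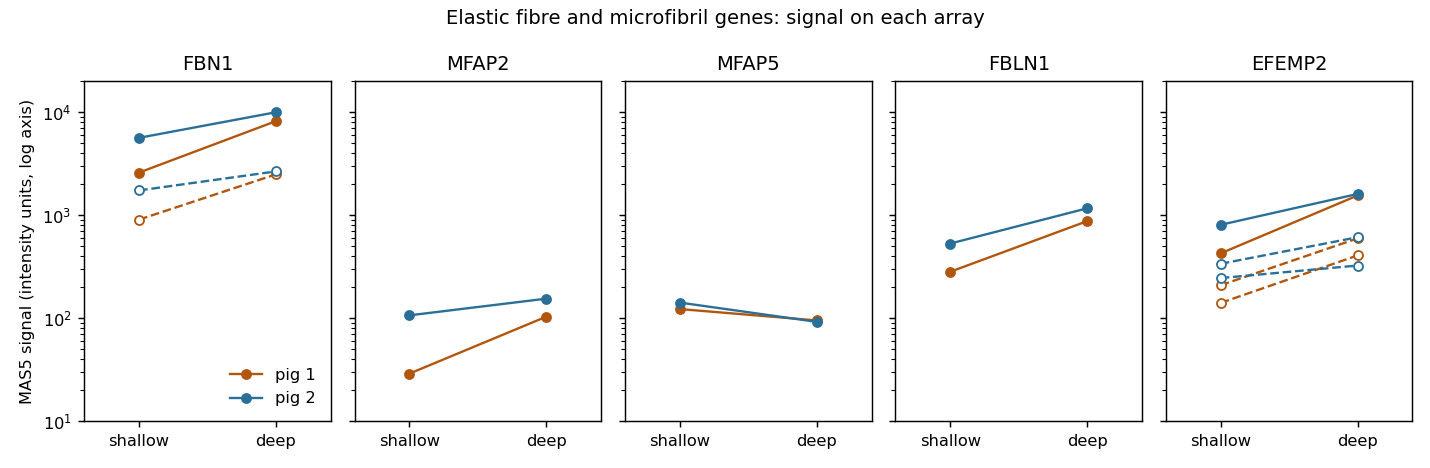
Signal of the 5 genes on each array, in MAS5 intensity units on a log axis shared by the panels, with lines joining the shallow and deep arrays of a pig. Filled points and solid lines are the brightest probeset of a gene, open points and dashed lines its other probesets. All lines climb from shallow to deep but those of MFAP5, and in all genes but MFAP5 the brightest probeset of pig 1 starts well below that of pig 2.

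FBN1 encodes fibrillin-1, the main structural protein of the adult microfibril. Its brightest probeset read 2581 in pig 1 and 5616 in pig 2 for shallow wounds, and 8158 and 9956 for deep wounds. The lowest deep array was above the highest shallow array, and the shallow arrays were farther from each other than the deep arrays were. Group means were 4098 ± 2146 in shallow and 9057 ± 1271 in deep cultures (SD, n = 2). The fitted difference was 1.24 ± 0.32 (SE; limma, adjusted p = 0.148), which is 2.37-fold. It was 3.16-fold in pig 1 and 1.77-fold in pig 2.

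The other FBN1 probeset read 902 and 1732 in shallow and 2482 and 2651 in deep cultures of pigs 1 and 2. The groups were again apart, with a difference of 1.04 ± 0.30 (limma, adjusted p = 0.192). The probesets of FBN1 thus gave the same order of depths, within each other's standard error. Its difference was larger than that of all but 2.78% of the probesets tested for the brightest probeset, and all but 4.39% for the other.

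MFAP2, also called MAGP-1, is a small glycoprotein that binds fibrillin along the microfibril. It was the dimmest of the 5, at 28.8 in pig 1 and 106 in pig 2 for shallow wounds and at 103 and 154 for deep wounds. The shallow array of pig 1 stood apart, and the shallow array of pig 2 lay level with the deep array of pig 1. The highest absent-transcript control read 14.8 on the shallow array of pig 1, below the MFAP2 signal there. The difference was 1.19 ± 0.43 (limma, adjusted p = 0.273), 3.56-fold in pig 1 and 1.45-fold in pig 2. With the shallow culture of pig 1 left out, in a fit with no pig block, the MFAP2 difference was 0.25. Its paired difference in pig 2 was 0.54.

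MFAP5, or MAGP-2, is the other microfibril-associated glycoprotein and binds fibrillin and cell-surface integrins. It had the opposite sign to MFAP2, at 122 in pig 1 and 141 in pig 2 for shallow wounds and 94.6 and 91.6 for deep wounds. The groups did not overlap, and the deep signal was 0.774 times the shallow one in pig 1 and 0.649 times in pig 2. The difference was -0.50 ± 0.34 (limma, adjusted p = 0.566). Among all probesets tested 16.4% had a lower difference. Unlike the other 4 genes, MFAP5 differed little between the shallow arrays, by 0.21 on the log2 scale.

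FBLN1 encodes fibulin-1, a calcium-binding glycoprotein found within the elastic core and in basement membranes. It read 281 in pig 1 and 528 in pig 2 for shallow wounds and 872 and 1162 for deep wounds. Each deep array was above each shallow array. Group means were 405 ± 175 and 1017 ± 205 (SD, n = 2), and the difference was 1.38 ± 0.28 (limma, adjusted p = 0.0894). FBLN1 had the smallest adjusted p of the 5 genes, and its folds in the pigs, 3.1 and 2.2, were the closest to each other among the 4 genes that were higher in deep.

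EFEMP2 encodes fibulin-4, which binds tropoelastin and lysyl oxidase and is needed for elastic fibres to form. Its brightest probeset read 424 in pig 1 and 803 in pig 2 for shallow wounds and 1548 and 1601 for deep wounds. The deep arrays were nearly level, while the shallow arrays differed 1.9-fold. The difference was 1.43 ± 0.31 (limma, adjusted p = 0.0973), or 2.7-fold, the largest of the 5 genes. It was 3.65-fold in pig 1 and 1.99-fold in pig 2.

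EFEMP2 had 3 probesets. The second in brightness read 208 and 336 in shallow and 593 and 608 in deep cultures, a difference of 1.18 ± 0.30 (limma, adjusted p = 0.144). The dimmest read 140 and 244 in shallow and 405 and 323 in deep cultures, a difference of 0.97 ± 0.35 (limma, adjusted p = 0.279). On each of the 3 probesets both deep arrays were higher than either shallow array. The sizes ranged from 1.96-fold to 2.7-fold, and the standard error ranges of the 3 overlapped.

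**Figure D2:**
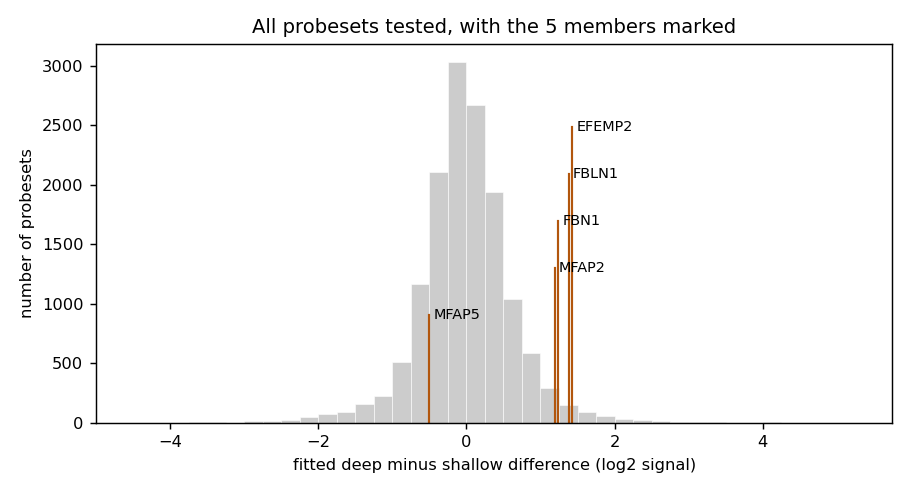
Fitted deep minus shallow difference (log2 signal) of all 14399 probesets tested, as the number of probesets in bins of the histogram, with vertical lines at the 5 genes (line heights are for legibility alone). EFEMP2, FBLN1, FBN1 and MFAP2 lie between 1.19 and 1.43 in the right tail, and MFAP5 lies at -0.50 in the body of the distribution.

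FBN1, FBLN1 and EFEMP2 shared their profile across the 4 arrays. With each gene centred on its mean, the root mean square distance between any pair of these 3 was 0.113 to 0.145 on the log2 scale. MFAP2 lay 0.288 to 0.406 from them, and MFAP5 lay 0.936 to 1.05 from the other 4. These distances are a description over 4 arrays that share scaling and quality differences.

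The shallow arrays lay farther apart between the pigs than the deep arrays did. Among FBN1, MFAP2, FBLN1 and EFEMP2 the shallow array of pig 2 read 1.88 to 3.67 times that of pig 1. The deep array of pig 2 read 1.03 to 1.5 times that of pig 1. In each of the 4 genes the difference was larger in pig 1 than in pig 2, with a median over all 5 of 1.66 in pig 1 and 0.83 in pig 2. Whether the pigs differed was not tested, since each gave 1 array per depth.

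The low values of these 4 genes fell on the array where all 7 epithelial markers were above the absent controls. The summed signal of the 6 endothelial markers was also highest there, at 739 against 249 to 374 on the other arrays. On that array 2 of the 6 were above the absent controls, PECAM1 at 601 and CLDN5 at 114. With that array left out, FBN1 differed by 0.68, FBLN1 by 0.93, EFEMP2 by 0.97 and MFAP5 by -0.60. The median of the 5 was then 0.68. This fit and the next had no pig block, so arrays of different pigs were also compared. In pig 2 alone these genes had paired differences of 0.83, 1.14, 0.99 and -0.62, which do not involve the shallow array of pig 1. With the shallow culture of pig 2 left out in its place, 4 of the 5 passed the adjusted threshold in limma, with differences of 1.80 for FBN1, 1.84 for FBLN1, 1.89 for EFEMP2 and 2.12 for MFAP2. In that fit 5.1% of all probesets passed in the same direction, and it rests on 1 shallow array, assumed to vary like the others. The part of the epithelial or endothelial signal in the differences was not tested. In such bulk cultures fewer cells of a type and less RNA per cell cannot be told apart.

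The fibroblast markers, like FBN1, FBLN1 and EFEMP2, read higher in deep cultures. For all 10 the deep arrays were higher than either shallow array (23.2% of all probesets), with a median difference of 0.92 and a range from 0.59 to 1.98, and none passed the adjusted threshold in limma. Their summed signal was 31622 and 37041 in shallow cultures of pigs 1 and 2 and 51139 and 72697 in deep cultures. The median over the markers was 0.88 in pig 1 and 1.03 in pig 2, whereas that of the elastic fibre genes was larger in pig 1. Single markers went either way. PDGFRB, DCN, LUM and FAP also had the larger difference in pig 1, with 1.41 and 0.74 for FAP. COL1A2, COL3A1, COL5A1, THY1, VIM and S100A4 had the larger one in pig 2, with 1.01 and 2.95 for THY1. Of 8 smooth muscle and pericyte markers 5 were measured, all above the absent controls on each array but 1 of them in the shallow culture of pig 2. Their summed signal was 654 and 1148 in shallow cultures of pigs 1 and 2 and 4696 and 3410 in deep cultures. ACTG2, smooth muscle gamma actin, made up most of each sum, at 492 and 717 in shallow and 4269 and 2914 in deep cultures. It rose by 2.57 (limma, adjusted p = 0.0351), and CNN1, calponin, differed by 1.29. RGS5 had opposite signs in the pigs, 1.88 and -0.63, and HIGD1B differed by 0.98 with the groups overlapping. DES was higher on the deep array within each pig but too dim to test. The part of either marker list in the differences of the elastic fibre genes was not tested.

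**Figure D3:**
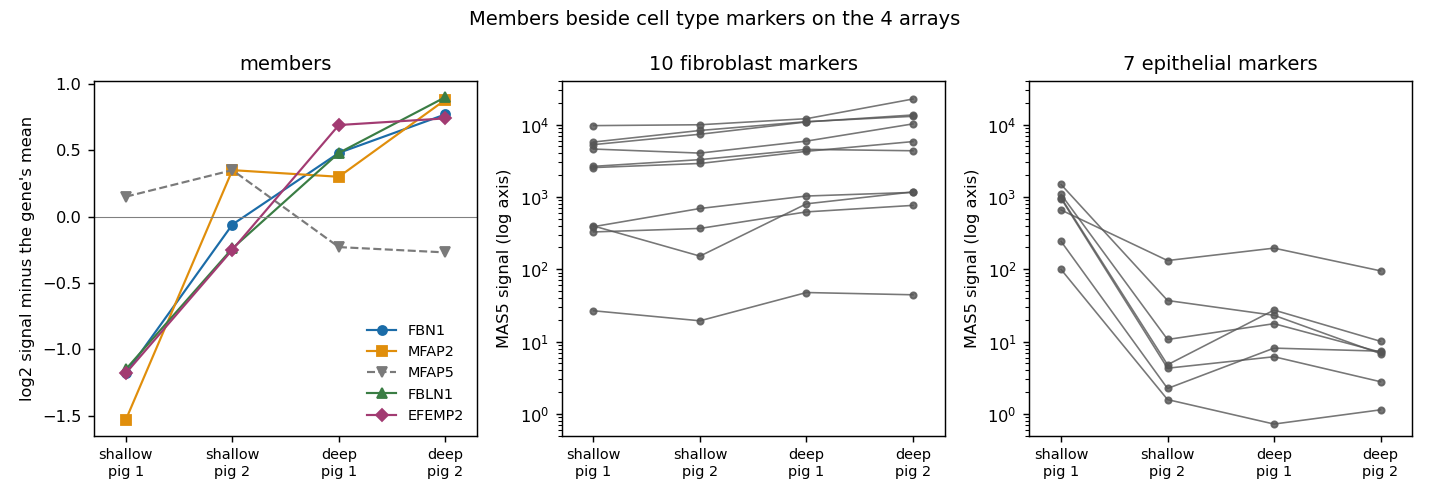
Left, log2 signal of the 5 genes on each array minus the gene's own mean. Middle and right, MAS5 signal on a log axis of the 10 fibroblast and 7 epithelial markers, 1 line per gene. The shallow array of pig 1 is the lowest for FBN1, MFAP2, FBLN1 and EFEMP2 and the highest for each epithelial marker, while MFAP5 is higher on the shallow arrays than on the deep arrays.

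The other genes of the pathway were taken from lists by role. Of 30 genes for cross-linking and assembly, 9 had a probeset named for them and 8 were bright enough to test. None passed the adjusted threshold in limma in either direction (0.34% of all probesets), 3 had an unadjusted p under 0.05, all higher in deep (6.94% of all probesets), and in 5 the deep arrays were higher than either shallow array (23.2% of all probesets). Their median difference was 0.32. LOX, lysyl oxidase, which starts the cross-linking of elastin and collagen, read 649 and 1289 in shallow and 1991 and 1676 in deep cultures of pigs 1 and 2. Like FBN1 and EFEMP2, LOX was lowest on the shallow array of pig 1. Its difference was 1.00 ± 0.34 over the 4 arrays, 1.62 within pig 1 and 0.38 within pig 2. Without the shallow array of pig 1, in a fit with no pig block, it was 0.50. LOXL1, a lysyl oxidase that acts on elastin, read 319 and 313 in shallow and 516 and 629 in deep cultures. Its shallow arrays were level, with a difference of 0.85 ± 0.28.

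FKBP10, an endoplasmic reticulum prolyl isomerase that assists folding of collagen and tropoelastin, differed by 0.84 in pig 1 and 0.85 in pig 2. PYCR1, an enzyme of proline synthesis, differed by 0.39 ± 0.31. The lysyl oxidase relative LOXL4 had opposite signs in the pigs, 0.40 and -0.67, as did EMILIN2, a microfibril-interface protein, at -0.25 and 0.30. MFAP3, which shares a name but not a family with the microfibril glycoproteins, differed by 0.26 ± 0.31.

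Proteases that can cut elastin gave 11 named genes of 13, of which 7 were tested. None passed the adjusted threshold, 4 had an unadjusted p under 0.05 in limma, all higher in deep (6.94% of all probesets), and the median difference was 0.84. MMP2, a gelatinase, read 774 and 1555 in shallow and 1829 and 3698 in deep cultures of pigs 1 and 2. Its groups were apart, with nearly equal differences of 1.24 and 1.25 in the pigs and an adjusted p of 0.0968 in limma. The MMP2 difference was 0.74 with the shallow culture of pig 1 left out and 1.75 with that of pig 2 left out. Those fits had no pig block, and the shallow array of pig 2 read 2.01 times that of pig 1. The lysosomal cathepsins CTSB, CTSK and CTSS, which can degrade matrix, differed by 1.15 ± 0.29, 0.84 ± 0.29 and 1.03 ± 0.41. CTSS was uneven, at 1.83 in pig 1 and 0.23 in pig 2. After quantile normalization CTSB was 0.54 and CTSK 0.50. With the shallow culture of pig 1 left out, in a fit with no pig block, CTSK was 0.46 and CTSS 0.47. The paired difference of CTSK in pig 2 was 0.69. The neutrophil elastase gene ELANE was below the highest absent control on all 4 arrays, and the metalloproteinases MMP9 and MMP7 were too dim to test.

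Inhibitors of these proteases gave 9 named genes of 11, and 5 were tested. None passed the adjusted threshold, 2 had an unadjusted p under 0.05 in limma, both higher in deep (6.94% of all probesets), and the median difference was 0.34. TIMP2, which inhibits MMP2 and also takes part in its activation, read 1736 and 3314 in shallow and 5383 and 7768 in deep cultures. Its brightest probeset differed by 1.43 ± 0.28 (limma, adjusted p = 0.0854), as much as that of EFEMP2. The shallow array of pig 1 was again the lowest. The other TIMP2 probeset differed by 0.77 ± 0.31 (limma, adjusted p = 0.317). After quantile normalization the brightest probesets gave 1.18 for TIMP2 and 1.47 for EFEMP2. TIMP1 differed by 0.26 in pig 1 and 1.53 in pig 2. TIMP3, the inhibitor held in the matrix, had opposite signs, 0.54 and -1.29, and its shallow signal in pig 2 was 3046, against 1241 to 1804 on the other 3 arrays. CSTB, an inhibitor of cysteine cathepsins, differed by 0.34 ± 0.27.

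Partners of the microfibril and its receptors gave 15 named genes of 17, and 13 were tested. None passed the adjusted threshold in limma, 5 had an unadjusted p under 0.05, all higher in deep (6.94% of all probesets), and in 9 the deep arrays were higher than either shallow array (23.2% of all probesets). The median difference was 0.44. DCN was counted both here and among the fibroblast markers. VCAN, the proteoglycan versican that binds fibrillin and fibulins, read 86.8 and 139 in shallow and 235 and 247 in deep cultures, a difference of 1.13 ± 0.33. This profile, lowest on the shallow array of pig 1 and level on the deep arrays, is the one EFEMP2 had. FN1, fibronectin, on whose fibrils microfibrils assemble, differed by 0.92 ± 0.34 on its brightest probeset. That value was 0.08 after quantile normalization. Within the pigs the brightest FN1 probeset gave 0.49 in pig 1 and 1.35 in pig 2. The other FN1 probeset that passed the filter had the reverse order, at 1.49 in pig 1 and 0.13 in pig 2.

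BGN, the proteoglycan biglycan, was uneven, at 0.28 in pig 1 and 2.77 in pig 2. Its value was 2.11 with the shallow culture of pig 1 left out, in a fit with no pig block. CLU, clusterin, a chaperone found on elastic fibres, differed by 0.88 ± 0.28. Leaving out the shallow culture of pig 1, again with no pig block, gave 0.28 for CLU. Its paired difference in pig 2 was 0.60. The integrin subunits tested differed by 0.64 ± 0.44 for ITGA5, 0.43 ± 0.26 for ITGB5, 0.41 ± 0.27 for ITGAV, 0.37 ± 0.29 for ITGB1 and -0.35 ± 0.31 for ITGB3. ITGA5 was uneven, at 0.11 in pig 1 and 1.17 in pig 2. GLB1, whose splice variant is the elastin-binding protein, differed by 0.44 ± 0.28.

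**Figure D4:**
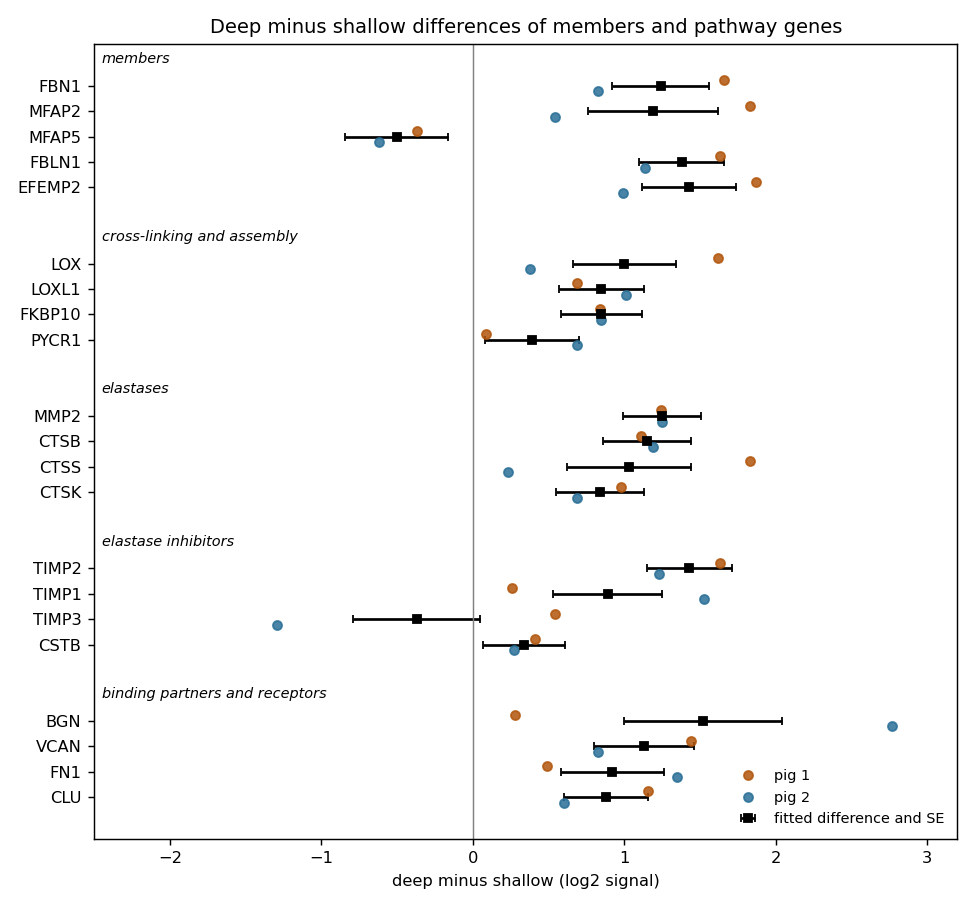
Deep minus shallow difference in log2 signal of the 5 genes and of 4 genes of each pathway list, with the paired difference of each pig as a coloured point and the fitted difference with its standard error as a black square and bar. On the brightest probesets, which are the ones shown, differences in pig 1 exceed those in pig 2 for FBN1, MFAP2, FBLN1 and EFEMP2. TIMP1, BGN and FN1 have the larger difference in pig 2 there, and TIMP3 has opposite signs.

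Among 5271 other named genes bright enough to test, those with the profile nearest to EFEMP2 over the 4 arrays were ENPP2, PAMR1, CITED1 and PTGDS. Their root mean square distances from it were 0.054, 0.0875, 0.0916 and 0.111 on the log2 scale. ENPP2, the enzyme autotaxin, read 14.4 and 26.6 in shallow and 53.9 and 58.6 in deep cultures. PAMR1, a secreted protein with a protease-like domain, read 66.0 and 141 in shallow and 277 and 291 in deep cultures. The transcriptional co-regulator CITED1 and ENPP2 were below the highest absent control on the shallow array of pig 1. PTGDS, a prostaglandin D synthase, differed by 1.26 ± 0.39. These distances cover 4 arrays and depend on the shape and size of a gene's changes, with its mean signal removed.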

How the data were processed

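The authors deposited MAS5 signal intensities on a linear scale, 1 per probeset and array; the submitters' processing notes name MAS5 and GCOS 1.0. The scaling target was not given in the sources used here. Deposited intensity values had a trimmed mean of 250.1 on each array, while the 99th percentile was 4732 and 5142 on shallow and 5619 and 6886 on deep arrays. Arrays carry no read depth, and their number limits the precision.

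From these, 124 control probesets were left out, signals under 1 were set to 1 (2547 of 95996 values) and log2 was taken. The dimmest 40% of probesets by mean log2 signal (below 27.1) were not tested, which left 14399 of 23999. Symbols came from the platform annotation, in which 10069 probesets had 1 symbol, 198 had several and 13732 had none. The brightest probeset stood for a gene, and all 8 probesets of the elastic fibre genes passed the filter. The absent-transcript controls were 23 probesets for tag and bacterial tryptophan sequences.

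Wound depths were compared in R 4.3.3 by limma 3.58.1 (lmFit, then eBayes with a variance trend), with pig as a block, two-sided, with Benjamini-Hochberg adjustment over 14399 probesets. The fit had 1 residual degree of freedom, to which moderation added 6.88. The pairing comes from the design and titles; deviations of same-pig arrays correlated at -0.01. The fit was tested on simulated data that held no pig effect, which could not test the pig block. Their noise lay exactly on the fitted variance trend, without differences in array quality. They therefore could not test the moderation or the effect of array quality. The named genes were all measured members, the called or 4 most different tested genes of each pathway list, and the 4 genes nearest in profile to the most different member. Members and lists were chosen with earlier results of these data known. Alternatives covered block, filter, normalization, floor, trend, probeset choice and leaving out each array. The fits with 1 array left out had no pig block.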

Additional observations from a re-analysis of the deposited data

How the results depend on the processing

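The pairing rests on the design: without the pig as replicate block the differences are the same by construction, 0 of the 5 elastic fibre genes and 0 of all probesets passed in limma (1885 at an unadjusted p under 0.05), against 49 with it. The total was also 0 without the filter on dim probesets (2246 at an unadjusted p under 0.05), 3 without the variance trend, 96 after quantile normalization and 100 with log2(signal + 16). In none of these, nor with median-centred arrays, the control-based floor or mean probesets, did an elastic fibre gene pass, and the median stayed at 1.19 to 1.24. Quantile normalization gave 0.90 for FBN1. With 1 array left out, where the lone array of a depth is assumed to vary like the others, the total ranged from 0 to 1597, elastic fibre genes passing from 0 to 4 and their median from 0.68 to 1.84. These fits had no pig block, so arrays of different pigs were also compared. The genes ranged from 0.68 to 1.80 (FBN1), 0.93 to 1.84 (FBLN1), 0.97 to 1.89 (EFEMP2), 0.25 to 2.12 (MFAP2) and -0.60 to -0.39 (MFAP5). Passing genes numbered 0 to 1 among cross-linking and assembly genes, 0 to 2 among elastases, 0 to 1 among inhibitors and 0 to 2 among binding partners, the upper counts all without the shallow array of pig 2. TIMP3 changed sign there, to 0.27, within a range of -1.02 to 0.27. The causes were not tested. VCAN fell below the filter as a mean over its probesets. Other probesets of the named pathway genes that passed the filter, 5 of 5, had the sign of the brightest.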
